A study of Mus musculus with 27 samples.

Results

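The proteasome is the barrel-shaped protease that cells use to degrade ubiquitin-tagged proteins. The genes described here are its constitutive subunits and their close helpers in macrophages of the mouse dura mater, the outermost membrane around the brain. They were chosen by name: every symbol in the table that starts with Psma, Psmb, Psmc, Psmd, Psme, Psmf or Psmg and continues with a digit was taken. The interferon-inducible forms Psmb8, Psmb9, Psmb10, Psme1 and Psme2 and 4 names with a pseudogene suffix were left out. The rule found 45 genes among the 41388 gene identifiers of the table, and it used no measured value. Of the 45, 16 encode the 20S core, with 8 in the outer alpha rings and 8 in the inner beta rings. A further 17 encode the 19S cap, with 6 ATPases and 3 other subunits in its base and 8 subunits in its lid. Of the other 12, 7 encode assembly chaperones, 3 encode the activators Psme3 and Psme4 and the inhibitor Psmf1, and 2 share only the form of the name. Those 2 are Psmc3ip, a meiotic recombination factor, and Psme2b, a copy of Psme2.

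In the complete proteasome the 20S core holds the proteolytic sites inside its barrel, and the 19S cap recognises the ubiquitin chain, removes it and threads the unfolded protein into the core. The catalytic subunits of the constitutive core are Psmb5 with chymotrypsin-like, Psmb6 with caspase-like and Psmb7 with trypsin-like activity. Under interferon-gamma, cells make Psmb8, Psmb9 and Psmb10, which take their places in newly built cores, the immunoproteasome, whose peptides feed antigen presentation on MHC class I.

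The RNA came from sorted macrophages of the dura of B6 mice with a Rag1 knockout, aged 16 to 19 weeks. All groups carried this knockout, those without T cells included, and a mouse that lacks Rag1 makes no T or B cells of its own. Counts were available for 27 libraries in 7 groups. In 6 groups the mice had received T cells 6.5 weeks before: T cells from Tbet ko (2 libraries), IFNg ko (2), IL6Ra/IL21R ko (7), IL17AF ko (2) or IL22 ko (3) donors, or total B6 T cells (5). The remaining group, with 6 libraries, was left without T cells at steady state. The knockouts other than Rag1 were thus in the transferred T cells and not in the sequenced macrophages, so no targeted gene could be checked here. The labels do not state that replicate libraries are separate animals, and p-values therefore measure the spread between these libraries, which may be technical. The column names of the 2 Tbet ko libraries carry the same number, and whether they share an animal is not stated. A library is called by its group, its sex and a running number, such as F1 or M1.

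Library totals ran from 6902602 to 19966749 counts. The summed level of 8 macrophage markers was between 22500 and 31400 CPM in every library, where CPM are counts scaled to a library total of 1e+06 after normalisation. T cell markers summed to at most 12.5 CPM. The libraries fell into 3 sets by the share of counts on ribosomal protein genes, a split taken from the data and not from the labels. Set A had 27515 to 33548 CPM of such genes, set B 11685 to 16140 and set C 7871 to 9151. Set A holds total T cells F1, F2 and M1 and no T cells F1, F2, M1 and M2. Set B holds total T cells F3 and F4, IL6Ra/IL21R ko F1 to F3 and M1 to M3, all 3 IL22 ko libraries, and no T cells F3 and F4. Set C holds all libraries of the Tbet ko, IFNg ko and IL17AF ko groups and IL6Ra/IL21R ko M4. These last 3 knockout groups share no set with any control library, so for them the T cells and the set cannot be told apart.

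Of the 45 genes, 44 passed the filter of a mean normalised count of at least 10, as did 12661 genes in all. The exception was Psmb11, the thymus form of Psmb5, with a count of 0 in every library. Psma8, a testis form of an alpha subunit, passed with a mean of only 18.6 counts. Reads from a gene and from an overlapping gene on the opposite strand cannot be told apart with the unstranded kit used. Such an overlap covered 8.2% of the exon bases of Psmc3 (Slc39a13), 10.1% of Psmd13 (Sirt3), 11.8% of Psmb7 (Nek6) and 25.5% of Psmd9 (Gm26745). Of the measured subunits, 5 of 15 in the core and 3 of 17 in the cap have a copy elsewhere in the annotation at 97% identity or more over at least 300 bases.

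Promoters of the core and the cap were compared by sequence, since the results below set the 2 complexes side by side. RefSeq promoter entries of the GRCm38.p6 build were matched for 37 of the 45 genes, 12 in the core and 14 in the cap. The 250 bases before the RefSeq start of 5 of the genes whose values are given in full below are printed 5′ to 3′ on the gene's own strand: Psmb5 at chr14:54617996-54618245 (minus strand), Psmb6 at chr11:70525107-70525356 (plus), Psma7 at chr2:180042465-180042714 (minus), Psmd8 at chr7:29180674-29180923 (minus) and Psmd13 at chr7:140882144-140882393 (plus). The gene spans given below come from another annotation, in which the Psmd13 gene begins earlier, so its stretch lies inside that span, and those of Psmb5 and Psmd8 overlap theirs. Capitals mark the core of the antioxidant response element, TGACNNNGC, in Psmb5 and Psmb6, the CCAAT box in Psma7, and the ETS core CGGAAG in Psmd8, where it lies on the opposite strand and reads CTTCCG, and in Psmd13.
Psmb5: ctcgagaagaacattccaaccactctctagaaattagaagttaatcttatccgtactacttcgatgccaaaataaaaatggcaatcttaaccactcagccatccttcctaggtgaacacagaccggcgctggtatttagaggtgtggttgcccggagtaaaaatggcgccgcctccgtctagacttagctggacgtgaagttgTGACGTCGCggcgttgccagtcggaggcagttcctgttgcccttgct
Psmb6: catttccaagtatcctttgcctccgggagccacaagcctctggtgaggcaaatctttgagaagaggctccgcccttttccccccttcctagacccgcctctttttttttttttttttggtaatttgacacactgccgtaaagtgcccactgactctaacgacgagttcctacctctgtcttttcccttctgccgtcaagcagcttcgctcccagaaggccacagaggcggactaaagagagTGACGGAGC
Psma7: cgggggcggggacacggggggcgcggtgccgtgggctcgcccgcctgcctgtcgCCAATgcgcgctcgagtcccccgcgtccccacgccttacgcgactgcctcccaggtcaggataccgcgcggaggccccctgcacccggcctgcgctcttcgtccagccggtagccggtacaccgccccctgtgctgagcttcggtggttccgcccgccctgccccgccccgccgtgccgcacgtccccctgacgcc
Psmd8: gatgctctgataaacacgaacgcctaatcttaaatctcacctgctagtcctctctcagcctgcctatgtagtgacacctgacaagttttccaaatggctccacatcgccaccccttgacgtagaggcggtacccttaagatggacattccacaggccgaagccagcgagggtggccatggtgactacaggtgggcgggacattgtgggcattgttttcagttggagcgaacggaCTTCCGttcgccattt
Psmd13: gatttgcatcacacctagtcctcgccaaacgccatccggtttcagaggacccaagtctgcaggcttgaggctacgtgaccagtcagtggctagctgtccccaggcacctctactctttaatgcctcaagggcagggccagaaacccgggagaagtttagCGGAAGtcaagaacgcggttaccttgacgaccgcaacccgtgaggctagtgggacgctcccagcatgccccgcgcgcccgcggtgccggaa

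Counted back from the start, the marked letters lie 47 to 39 bases before it in Psmb5, 9 to 1 in Psmb6, 196 to 192 in Psma7, 16 to 11 in Psmd8 and 91 to 86 in Psmd13. In all, 7 strings were counted on both strands of the whole entries of 300 bases, 250 before the start and 50 after it. The 50 bases after the start are not printed above. The letters shown in capitals were chosen after that count. The ETS core CGGAAG was found in 5 of 12 core promoters and in 13 of 14 cap promoters, against 18.8% of all 27025 promoters and 34.8% of the 9822 promoters of tested genes. The CCAAT box was found in 7 of 12 core and 4 of 14 cap promoters, against 41.1% of all and 42.7% of tested. The 12 core promoters include that of Psmb11, which holds both of these strings and is not among the tested genes. TGACNNNGC, the letters bound by Nfe2l1 and Nfe2l2, was found in 2 of 12 and 2 of 14, against 14% of all and 17.2% of tested. The GC box GGGCGG was found in 5 of 12 and 10 of 14, against 38.2% and 68.5%, and TGACG, the first part of the cyclic AMP response element, in 7 of 12 and 6 of 14, against 23% and 35.4%. The marked TGACNNNGC of Psmb5 and Psmb6 begins with TGACG, so those matches overlap. TTCNNNGAA, a pair of heat shock units, was found in 0 of 12 and 1 of 14, against 9.55% and 8.16%. The E-box CACGTG was found in 1 of 12 and 0 of 14, against 8.09% and 11.6%. A match describes these letters only, and a missing match says nothing of the factor.

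Total T cells against no T cells asks how the macrophages' transcripts differ with T cells present. Of the 44 genes tested, 23 were higher and 0 were lower with total T cells, at an adjusted p (q) under 0.05 by edgeR's quasi-likelihood test over all 12661 genes. Of all tested genes, 11.5% were higher. In the 20S core 12 of 15 rose, with a median log2 fold change of 0.60. In the 19S cap 7 of 17 rose, with a median of 0.31, and all 17 fold changes were above 0, from 0.09 to 0.59. The median over all tested genes was −0.03. In bulk RNA, more cells of a type and more RNA per cell cannot be told apart. All 5 markers of monocyte-derived cells on the list used (Ly6c2, Ccr2, Plac8, Itgal and Fn1) were also higher, with sums of 1740 to 5810 CPM with total T cells and 682 to 1180 CPM without T cells, and their part in the proteasome result was not tested.

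**Figure D1:**
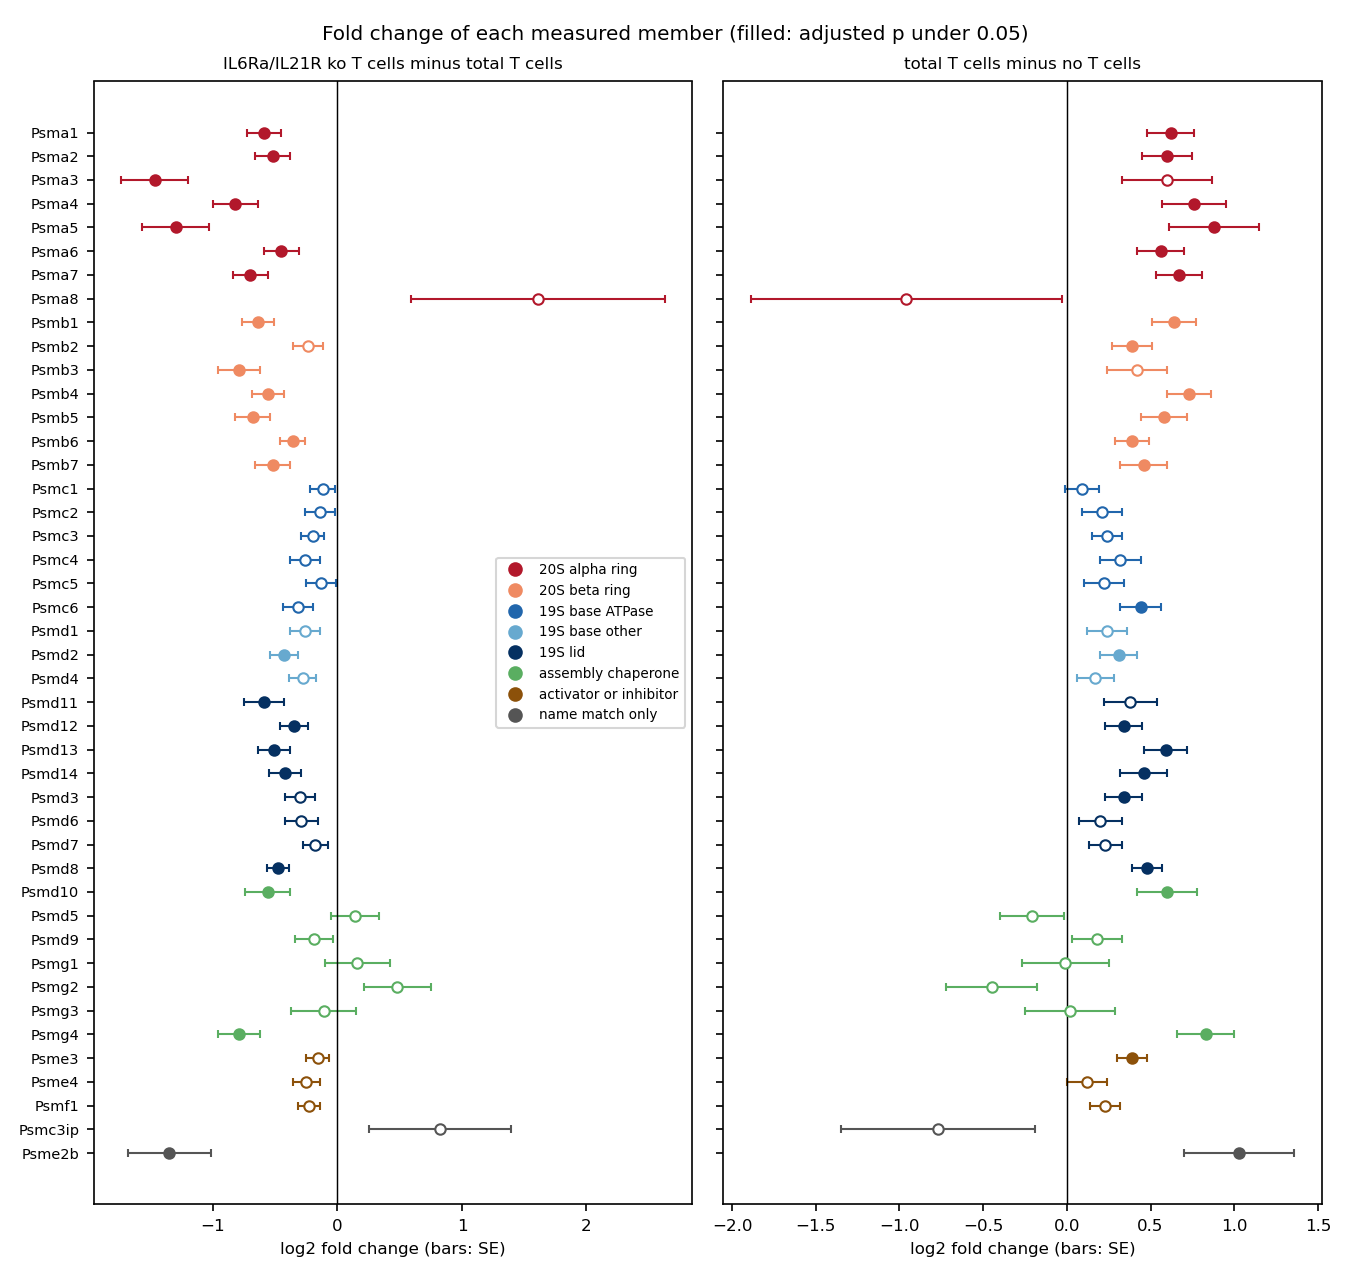
Log2 fold change (x axes, which differ in range) of each of the 44 measured genes, with bars of 1 standard error, in IL6Ra/IL21R ko against total T cells on the left and in total T cells against no T cells on the right, coloured by role. Filled points passed an adjusted p under 0.05: 22 on the left, all below 0, and 23 on the right, all above 0.

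The count depended on single libraries of the total T cell group. It was 12 without total T cells M1 and 14 without F1, in fits that called 13.3% and 15.4% of all genes in either direction, against 21.1% with all libraries. Without F3 it was 26, and in none of these fits was a member lower. Within set A, 3 total T cell libraries against 4 without T cells, 20 members were higher, against 9.2% of all genes, and these were 14 of the core (median 0.73) and 4 of the cap (median 0.46) with 2 others. Within set B, 2 libraries against 2, no member passed, against 0.421% of all genes, with 9 members at an unadjusted p under 0.05. The set B medians were 0.38 for the core and 0.09 for the cap. The difference between the sets was tested as an interaction over 11 libraries with edgeR: 0 of 44 members and 0 of 12780 genes passed, with 7 members and 1257 genes at an unadjusted p under 0.05.

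Among the catalytic subunits, Psmb5 had 56.3, 34.6, 30.6, 31.7 and 47.2 CPM with total T cells (F1 to F4 and M1), and 21.9, 27.9 and 32.5 CPM (lowest, median and highest) without T cells. F1 and M1 stood highest, and F3 and F4 lay inside the range of the libraries without T cells. The log2 fold change was 0.58 ± 0.14 (SE, q = 0.00385). It was 0.77 within set A and 0.24, below the threshold, within set B. Psmb5 (ENSMUSG00000022193) lies at chr14:54614119-54618022 in GRCm38, the build of all gene positions here, and a processed copy, Gm3375, shares 98.869% of 796 bases with it.

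Psmb6 had 132, 127, 103, 118 and 143 CPM with total T cells, and 88.1, 96.0 and 102 CPM without T cells. The groups did not overlap, although F3 lay just above the highest library without T cells. The log2 fold change was 0.39 ± 0.10 (q = 0.00732), 0.54 within set A and 0.14 within set B. Without total T cells M1 it was 0.32 with q = 0.0504. Psmb6 (ENSMUSG00000018286) lies at chr11:70525367-70527858.

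Psmb7 had 157, 132, 93.1, 109 and 145 CPM with total T cells, and 71.9, 86.9 and 132 CPM without T cells. Its groups overlapped, since no T cells F4 was as high as total T cells F2. The log2 fold change was 0.46 ± 0.14 (q = 0.0224), but 0.79 within set A and −0.14 within set B. It missed the threshold without total T cells M1 (q = 0.114), total T cells F1 (0.0804), no T cells F1 (0.0615) or no T cells M1 (0.0551). Psmb7 (ENSMUSG00000026750) lies at chr2:38588036-38644087.

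In the beta rings 6 of 7 measured subunits rose, the catalytic ones among them, and in the alpha rings 6 of 8. The most significant alpha subunit over the 7 groups was Psma7, which forms part of the ring that gates the barrel. It had 237, 161, 155, 176 and 229 CPM with total T cells, and 97.5, 116 and 139 CPM without T cells. All 5 libraries with total T cells lay above the highest without, and the log2 fold change was 0.67 ± 0.14 (q = 0.00144). It was 0.83 within set A and 0.39, below the threshold, within set B. Psma1, also of the alpha ring, had 201, 115, 126, 137 and 196 CPM with total T cells, and 94.7, 100 and 113 CPM without T cells. These groups did not overlap either, and its log2 fold change was 0.62 ± 0.14 (q = 0.00313). Psma7 (ENSMUSG00000027566) lies at chr2:180036374-180042433 and Psma1 (ENSMUSG00000030751) at chr7:114264606-114276118. Over the other core subunits the fold changes ran from 0.39 (Psmb2) to 0.88 (Psma5), apart from Psma8 at −0.96 ± 0.93. Those that missed the threshold were Psma3 (0.60, q = 0.119), Psmb3 (0.42, q = 0.0915) and Psma8 (q = 0.51).

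In the cap, 5 of 8 lid subunits rose (median 0.36), namely Psmd3, Psmd8, Psmd12, Psmd13 and the deubiquitinase Psmd14. The scaffold subunit Psmd8 had 187, 134, 136, 139 and 167 CPM with total T cells, and 91.0, 111 and 121 CPM without T cells. The groups did not overlap, and the log2 fold change was 0.48 ± 0.09 (q = 0.000822), with 0.60 within set A and 0.29, below the threshold, within set B. Psmd13 had 162, 105, 90.9, 97 and 128 CPM with total T cells, and 64.6, 76.3 and 90.4 CPM without T cells. Total T cells F3 lay just above the highest library without T cells, and the log2 fold change was 0.59 ± 0.13 (q = 0.00232), with 0.82 within set A and 0.15, below the threshold, within set B. Psmd8 (ENSMUSG00000030591) lies at chr7:29174188-29180701 and Psmd13 (ENSMUSG00000025487) at chr7:140881968-140898643.

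Of the base, 2 of 9 subunits rose. Among its 6 ATPases, the motors that unfold the substrate, only Psmc6 passed (0.44 ± 0.12, q = 0.0119), and the median was 0.23. Psmc3, the ATPase with the lowest p over the 7 groups, had 161, 152, 149, 150 and 184 CPM with total T cells, and 121, 132 and 164 CPM without T cells. No T cells F3 lay above 4 of the 5 libraries with total T cells, and the log2 fold change of 0.24 ± 0.09 missed the threshold (q = 0.0726). Without no T cells F3 it was 0.31 and passed (q = 0.0194). Of the 3 other base subunits, the scaffold Psmd2 rose by 0.31 ± 0.11 on the log2 scale (q = 0.046). Psmd4, a ubiquitin receptor, had 99.2, 83.8, 99.7, 90.3 and 107 CPM with total T cells, and 72.2, 81.5 and 114 CPM without T cells. The highest library of the comparison was no T cells F4, and Psmd4 did not pass (0.17 ± 0.11, q = 0.28) except without that library (0.28, q = 0.0392). Psmc3 (ENSMUSG00000002102) lies at chr2:91054009-91066369 and Psmd4 (ENSMUSG00000005625) at chr3:95032694-95042614.

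Of the 7 assembly chaperones 2 rose, and their median was 0.02. Psmg4, a chaperone of alpha ring assembly, had 39.8, 30.1, 24.1, 28 and 37.1 CPM with total T cells, and 14.7, 18.0 and 21.6 CPM without T cells. Every library with total T cells was above every library without, and the log2 fold change was 0.83 ± 0.17 (q = 0.00121), with 0.99 within set A and 0.54, below the threshold, within set B. Psmd10, a chaperone of the base, rose by 0.60 ± 0.18 (q = 0.0176). The alpha ring chaperones Psmg1, Psmg2 and Psmg3 were at −0.01, −0.45 and 0.02 and did not pass. Psmg4 (ENSMUSG00000071451) lies at chr13:34162964-34178173.

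Psme3, the nuclear activator of the core, had 102, 88.5, 110, 92.5 and 116 CPM with total T cells, and 72.6, 76.8 and 84.0 CPM without T cells. The groups did not overlap, and the log2 fold change was 0.39 ± 0.09 (q = 0.00427), with 0.36 within set A and 0.45 within set B, each below the threshold in its own set. Psme4 and the inhibitor Psmf1 were at 0.12 and 0.23 and did not pass. Psme2b had 13.3, 6.43, 3.67, 6.23 and 5.71 CPM with total T cells, and 2.12, 3.56 and 4.06 CPM without T cells. Only total T cells F3 lay within the range of the libraries without T cells, and the log2 fold change was 1.03 ± 0.33 (q = 0.0259), with q = 0.156 without total T cells F1 and 0.0685 without no T cells F1. Psme2b shares 99.37% of 794 bases with Psme2 and had 1330 counts over all libraries, against 41452 for Psme2, so its reads are uncertain. Psme3 (ENSMUSG00000078652) lies at chr11:101316213-101323537 and Psme2b (ENSMUSG00000078153) at chr11:48945354-48946190.

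IL6Ra/IL21R ko against total T cells asks what differs when the donor T cells lack these cytokine receptors. Of the 44 genes, 22 were lower and 0 were higher, and 14.8% of all tested genes were lower. In the core 13 of 15 fell (median −0.59), made up of 7 of 8 alpha and 6 of 7 beta subunits. In the cap 6 of 17 fell (median −0.29): the base subunit Psmd2 and the lid subunits Psmd8, Psmd11, Psmd12, Psmd13 and Psmd14. None of the 6 ATPases passed (median −0.17). The median over all genes was 0.03. The 5 monocyte-derived markers were lower as well, with sums of 357 to 1030 CPM with IL6Ra/IL21R ko T cells and the 1740 to 5810 CPM of total T cells above. The total T cell libraries are the same as in the comparison above, so the pair of comparisons is not independent.

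Psmb5 had 23.4, 25.6 and 30.2 CPM (lowest, median and highest of 7) with IL6Ra/IL21R ko T cells, against the 30.6 to 56.3 CPM of total T cells given above. The groups did not overlap, and the log2 fold change was −0.68 ± 0.14 (q = 0.000567). Psmb6 had 72.8, 101 and 109 CPM with IL6Ra/IL21R ko T cells, overlapping total T cells at F3, and was lower by −0.36 ± 0.10 on the log2 scale (q = 0.00869). Psmb7 had 71.4, 90.8 and 94.9 CPM with IL6Ra/IL21R ko T cells, also overlapping only F3, and was lower by −0.52 ± 0.14 (q = 0.0076). Psmb6 and Psmb7 missed the threshold without total T cells M1 (q = 0.0835 and 0.0781).

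Psma7 had 78.4, 119 and 148 CPM with IL6Ra/IL21R ko T cells, all below the lowest total T cell library, and a log2 fold change of −0.70 ± 0.14 (q = 0.000515). Psma1 had 77.2, 103 and 128 CPM with IL6Ra/IL21R ko T cells, overlapping total T cells F2 and F3, and a log2 fold change of −0.59 ± 0.14 (q = 0.00278). The farthest from 0 of the called core subunits were Psma3 at −1.47 and Psma5 at −1.30. Both differed between the library sets within the controls: Psma3 was at 37.5 to 56.7 CPM in the 4 set A libraries without T cells, and at 16.6 and 27.4 CPM in those of set B.

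Psmd8 had 99.2, 112 and 116 CPM with IL6Ra/IL21R ko T cells, below every total T cell library, with a log2 fold change of −0.48 ± 0.09 (q = 0.000441). Psmd13 had 68.1, 80.7 and 93.3 CPM with IL6Ra/IL21R ko T cells, overlapping total T cells F3, with −0.51 ± 0.13 (q = 0.00451). Psmc3 had 118, 140 and 162 CPM with IL6Ra/IL21R ko T cells, within the total T cell range at its upper end, and did not pass (−0.20 ± 0.09, q = 0.127). Psmd4 had 69.9, 83.1 and 85.7 CPM with IL6Ra/IL21R ko T cells, overlapping total T cells F2, and did not pass (−0.28 ± 0.11, q = 0.0569). Without total T cells F2 or no T cells F4, Psmd4 did pass (q = 0.0421 and 0.016).

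Psmg4 had 11.8, 19.7 and 23.1 CPM with IL6Ra/IL21R ko T cells, below every total T cell library, and fell (−0.79 ± 0.17, q = 0.00104). Psmd10 fell as well (−0.56 ± 0.18, q = 0.019). Psme3 had 76.3, 87.2 and 105 CPM with IL6Ra/IL21R ko T cells, overlapping total T cells F1, F2 and F4, and did not pass (−0.16 ± 0.09, q = 0.221). Psme2b had 1.83, 2.74 and 3.74 CPM with IL6Ra/IL21R ko T cells overlapping total T cells F3, and fell (−1.35 ± 0.33, q = 0.00322), with the same doubt about its reads.

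This result was smaller within one set. In set B, 6 IL6Ra/IL21R ko libraries against 2 with total T cells, no member passed by edgeR, against 4.35% of all genes that were lower, and 7 members had an unadjusted p under 0.05. The set B medians were −0.18 for the core and −0.10 for the cap. With the set as a term in the fit of all libraries, 4 members were lower, as were 982 of all 12661 genes, a share close to that of the members. Without the 7 libraries of set C, 22 were, and without total T cells M1, 14 were, in a fit that called 19.1% of all genes in either direction, against 28.2% with all libraries.

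Against no T cells, the IL6Ra/IL21R ko group had 0 of 44 members called by edgeR and 1 by DESeq2, where edgeR called 1.16% of all genes. By edgeR, 3 members and 1367 of all 12661 genes had an unadjusted p under 0.05. Without no T cells F4, 1 member was called. The medians were −0.01 for the core and 0.04 for the cap. Within set B no member passed, with 2 at an unadjusted p under 0.05, where 0.494% of all genes were called at the adjusted threshold. A p that misses the threshold does not show equal levels. For Psmb5, IL6Ra/IL21R ko libraries reached from 23.4 to 30.2 CPM, inside the 21.9 to 32.5 CPM of those without T cells.

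In the fit of all libraries the medians of the IL22 ko group lay between those of total T cells and no T cells. Against total T cells no member passed by edgeR, which called 0.284% of all genes, and 2 were lower by DESeq2. An unadjusted p under 0.05 by edgeR was seen for 14 members and 2196 of all 12661 genes. The medians were −0.37 for the core and −0.19 for the cap. Within set B, which holds all 3 IL22 ko libraries and 2 with total T cells, the medians were −0.02 and −0.02, and no member passed, with 0 at an unadjusted p under 0.05, where 0% of genes were lower. In the fit over all sets, 2 members were lower without total T cells F3 or F4, and 1 without IL6Ra/IL21R ko M4.

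Against no T cells, the IL22 ko group also had 0 members called by edgeR and 0 by DESeq2, where edgeR called 0.0079% of all genes. An unadjusted p under 0.05 by edgeR was seen for 2 members and 1194 of all 12661 genes. The medians were 0.24 for the core and 0.13 for the cap, and 13 of 15 core subunits had fold changes above 0. Within set B none passed, with 4 at an unadjusted p under 0.05, where 0.0567% of all genes were called at the adjusted threshold. Psmb5 had 28.4, 32.6 and 34.6 CPM in the IL22 ko libraries (F1, F2 and M1). These overlap both the 30.6 to 56.3 CPM of total T cells and the 21.9 to 32.5 CPM of no T cells.

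Most members were lower in the Tbet ko, IFNg ko and IL17AF ko groups than with total T cells, whose libraries lie in other sets. With Tbet ko T cells 27 of 44 were lower, against 14.2% of all genes, with medians of −0.85 in the core and −0.51 in the cap. With IFNg ko T cells 34 were lower, against 18.5% of all genes, with medians of −1.08 and −0.57. With IL17AF ko T cells 29 were lower, against 11.6%, with medians of −0.88 and −0.49. In each of these comparisons 14 of 15 core subunits fell, all but Psma8, and 10, 15 and 11 of 17 cap subunits. With the set as a term, edgeR called 0 members in each of the 3, with 1, 5 and 2 at an unadjusted p under 0.05 for Tbet ko, IFNg ko and IL17AF ko. Of all 12661 genes, 1196, 1556 and 891 had such an unadjusted p, in the same order. Only 0.0474%, 0.348% and 0.0237% of all genes were called in these fits. Their medians were −0.22 in the core and −0.28 in the cap for Tbet ko, −0.43 and −0.42 for IFNg ko, and −0.23 and −0.33 for IL17AF ko, so the larger shift of the core was not seen there. In that fit the level of set C against set B rests on a single library, IL6Ra/IL21R ko M4, so the set and the T cells still cannot be told apart.

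Left-out libraries moved these counts too. The share of all genes called in either direction moved as well. For Tbet ko there were 7 members without Tbet ko F1 (11.8% of all genes) and 17 without F2 (15.8%), against 30% of genes with all libraries. For IFNg ko there were 18 without IFNg ko F1 (16.1%, against 36.4%). For IL17AF ko there were 10 without IL17AF ko F1 (7.84%) and 12 without F2 (10.5%), against 25%. In such a fit the remaining library is assumed to vary like those of the other groups. The set C libraries also differed in other markers. Fibroblast markers summed to 2880 to 3160 CPM with Tbet ko, 2910 to 3490 with IFNg ko and 2190 to 2930 with IL17AF ko T cells, against 230 to 374 with total T cells and 412 to 1390 without T cells. Their part in the result was not tested.

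Against no T cells the shifts were smaller. IFNg ko had 7 members lower, against 6.22% of all genes, with medians of −0.49 in the core and −0.33 in the cap. These 7 were Psma1 (−0.62), Psma7 (−0.68), Psmb3 (−0.92), Psmb6 (−0.52), Psmc3 (−0.46), Psmd4 (−0.51) and Psmd13 (−0.57). Without IFNg ko F1 none passed, and only 0.00791% of all genes did in either direction. Without IFNg ko F2 or total T cells F3 there were 11 members. Of the 7, Psma1, Psma7, Psmb6 and Psmd13 were higher with total T cells than without. Psmb6 had 67.1 and 66.0 CPM with IFNg ko T cells, below all 6 libraries without T cells, and Psma7 had 67.4 and 82.7 CPM, also below all 6. Psmc3 had 87.2 and 108 CPM and Psmd4 58.6 and 60.6 CPM with IFNg ko T cells, below the lowest library without T cells, 121 and 72.2 CPM. With the set as a term none of the 44 passed, and 0 of all genes did. The medians in that fit were 0.11 in the core and −0.15 in the cap, so the core median changed sign.

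Tbet ko against no T cells had 1 member lower, against 2.84% of all genes. It was Psmb3, a beta ring subunit named after its values were seen, at 21.9 and 20.1 CPM with Tbet ko T cells and 32.2 to 47.3 CPM without T cells (−0.84 ± 0.26, q = 0.0471). By DESeq2 3 members were called, 2 lower and 1 higher. By edgeR 9 members had an unadjusted p under 0.05, as did 2911 of all 12661 genes. Leaving out a library moved the count between 0 and 3. IL17AF ko against no T cells had 0 called by edgeR, where 6.03% of all genes were called, and 1 by DESeq2. At an unadjusted p under 0.05 by edgeR there were 10 members and 2822 of all 12661 genes. Without IL6Ra/IL21R ko M4, 1 member was called. The medians were −0.33 and −0.19 for Tbet ko, and −0.31 and −0.21 for IL17AF ko, each with the core first. With the set as a term they were 0.32 and 0.03 for Tbet ko, and 0.37 and −0.04 for IL17AF ko. The core medians thus changed sign in that fit, where the level of set C rests on IL6Ra/IL21R ko M4.

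**Figure D2:**
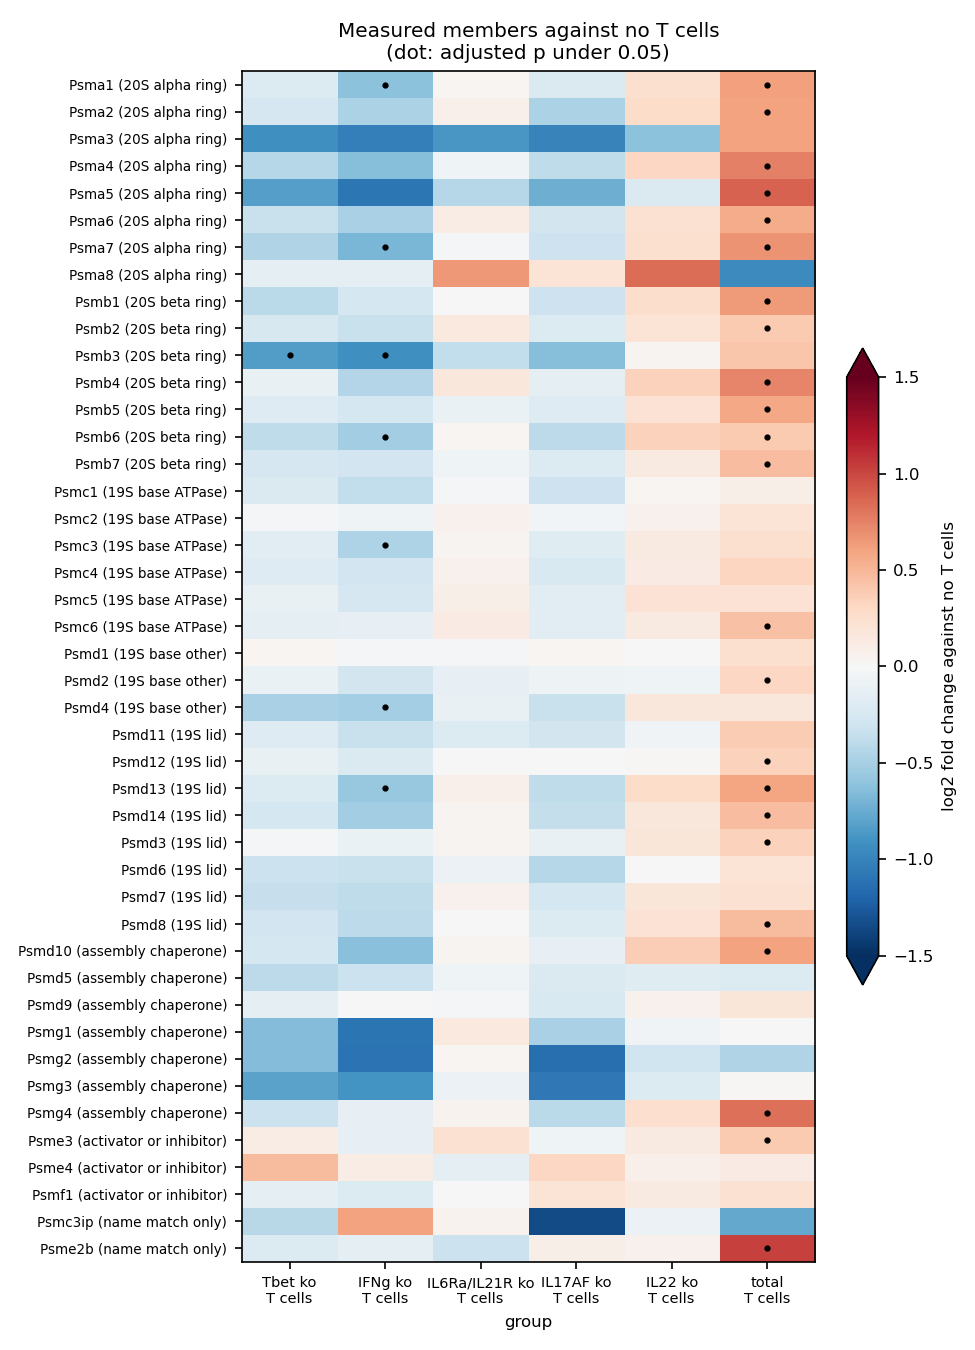
Log2 fold change against no T cells (colour) of the 44 measured genes, ordered by role, in the 6 groups that received T cells, with a dot where the adjusted p was under 0.05. The 23 dots of total T cells lie on higher genes, and the 7 of IFNg ko and 1 of Tbet ko on lower ones.

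Any difference among the 7 groups was called for 30 of 44 members, against 38% of all genes. These were 14 of 15 core and 11 of 17 cap subunits. With the set as a term there were 12 members, and 14.2% of all genes were called.

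To set the core against the cap in each library, a score was taken as the mean of log2(CPM + 1) over the 15 core or the 17 cap subunits. The 20S score was 6.69, 6.23, 5.89, 6.16 and 6.60 with total T cells (F1 to F4 and M1) and 5.69 to 6.09 without T cells. F3 alone lay within the range without T cells. The mean was 6.31 ± 0.33 with total T cells (SD, n = 5) and 5.83 ± 0.14 without (SD, n = 6). The order of the other group means was IL22 ko 6.01 ± 0.08, IL6Ra/IL21R ko 5.78 ± 0.19, IL17AF ko 5.49 ± 0.07, Tbet ko 5.45 ± 0.07 and IFNg ko 5.27 ± 0.22. IL6Ra/IL21R ko and no T cells differed by less than their SDs, as did IL17AF ko and Tbet ko. Since the members were chosen with earlier results known, no p is given for a score.

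**Figure D3:**
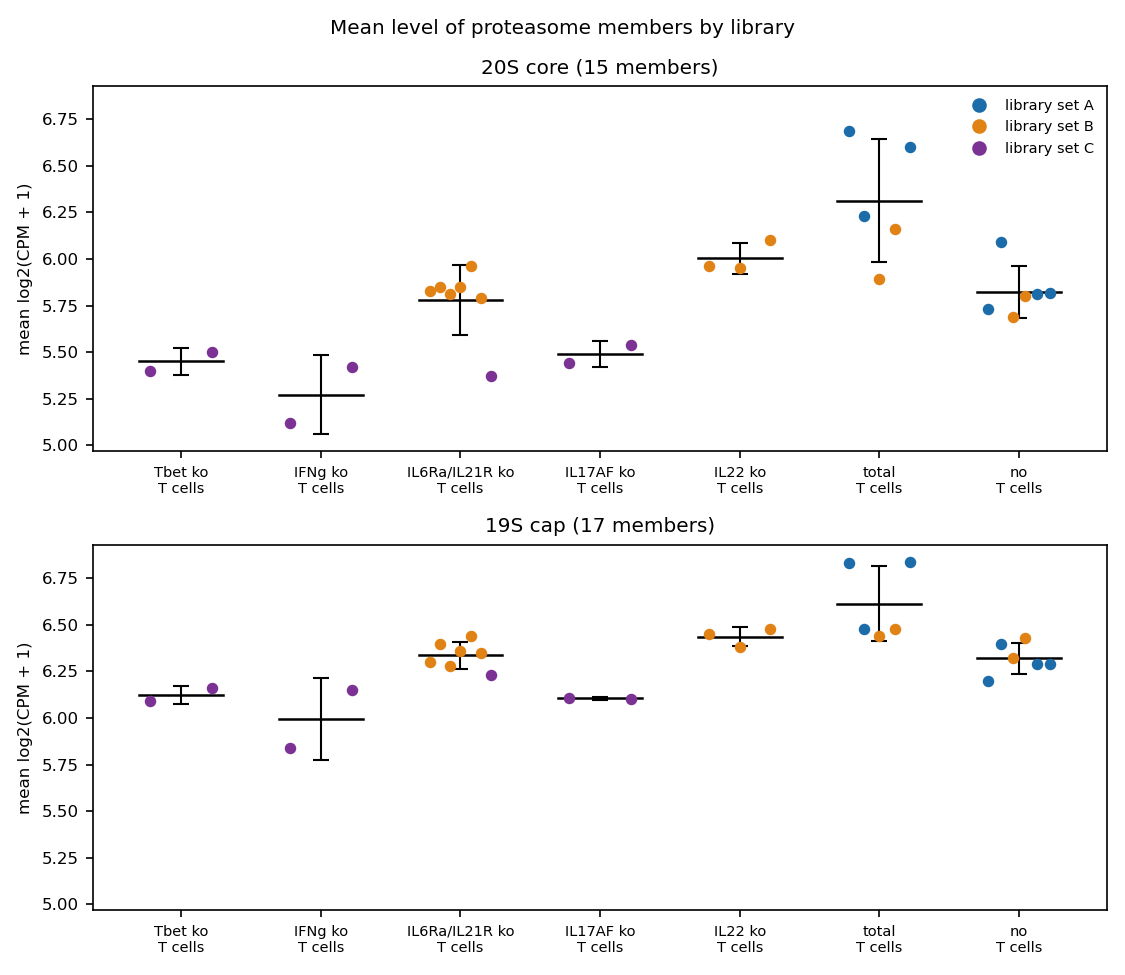
Mean log2(CPM + 1) of the 15 measured 20S subunits and of the 17 19S subunits in each library, by group, with the group mean and SD. The 20S score is 5.89 to 6.69 with total T cells and 5.69 to 6.09 without T cells, and colours mark the library sets.

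The 19S score spread less. It was 6.13 ± 0.05 with Tbet ko, 6 ± 0.22 with IFNg ko, 6.34 ± 0.07 with IL6Ra/IL21R ko, 6.11 ± 0.01 with IL17AF ko 6.43 ± 0.05 with IL22 ko and 6.61 ± 0.20 with total T cells, and 6.32 ± 0.08 without T cells. The 20S score minus the 19S score was −0.14, −0.26, −0.55, −0.32 and −0.24 with total T cells, and −0.63 to −0.30 without T cells. Total T cells F3 and F4, both of set B, lay in the range of the libraries without T cells. The mean difference was −0.30 ± 0.15 with total T cells and −0.50 ± 0.12 without, a gap of 0.19. The gap was 0.22 within set A and 0.19 within set B.

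The same difference was −0.56 ± 0.14 with IL6Ra/IL21R ko T cells, 0.25 below total T cells, and M4, its 1 library of set C, was lowest at −0.86. Within set B the IL6Ra/IL21R ko mean was −0.51 ± 0.04 and that of total T cells −0.44 ± 0.17, a gap of −0.07. Without the 5 core and 3 cap subunits that have a near-identical copy, the gap over all libraries was −0.10. Psma8, at a log2 fold change of 1.61 on few counts, is then 1 of 10 core subunits in the score. The median log2 fold changes were −0.52 in the core and −0.28 in the cap without those subunits, and −0.59 and −0.29 with them. The part of the copies was not tested. For IL22 ko the mean was −0.43 ± 0.05, a gap of −0.12 to total T cells. That gap was 0.01 within set B, −0.19 without total T cells F3 and −0.01 without the members that have a copy. Without those members the median log2 fold changes against total T cells were −0.33 in the core and −0.19 in the cap. Without Psma8, which has few counts, the gaps were −0.35 for IL6Ra/IL21R ko and −0.21 for IL22 ko to total T cells, and 0.25 for total T cells to no T cells. The lowest means were those of the set C groups, −0.73 ± 0.01 for IFNg ko, −0.68 ± 0.02 for Tbet ko and −0.62 ± 0.08 for IL17AF ko.

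**Figure D4:**
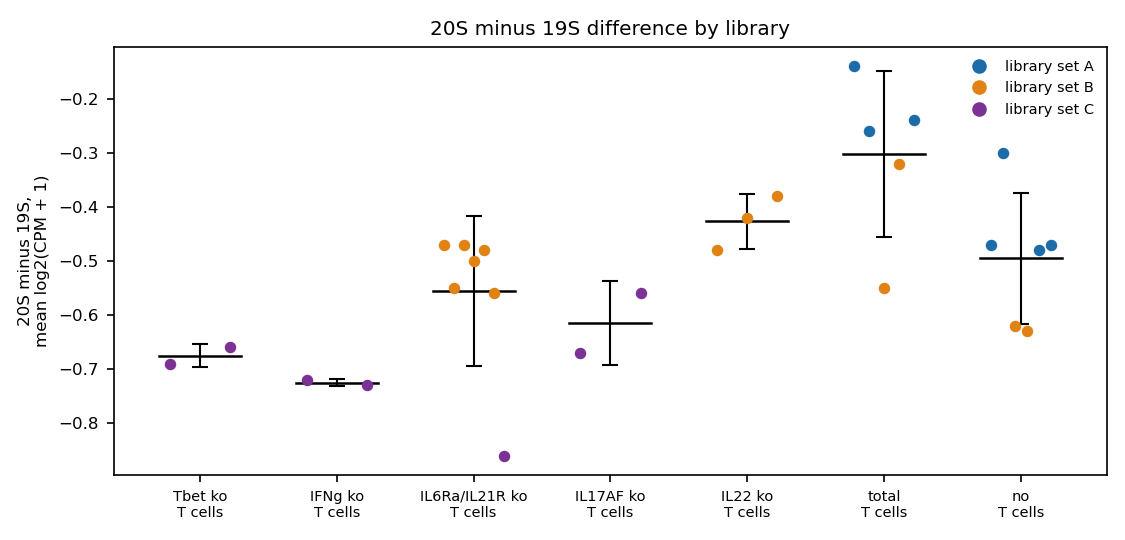
20S score minus 19S score, in log2 units, in each library by group, with group means and SDs and with library sets marked. Total T cells lie at −0.55 to −0.14 and no T cells at −0.63 to −0.30, and the gap of their means is 0.19 over all libraries and within set B. Within set B the gaps to total T cells are −0.07 for IL6Ra/IL21R ko and 0.01 for IL22 ko.

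Levels per length place the core slightly above the cap. They depend on the exon lengths used, with medians of 2370 bases in the core and 2820 in the cap. In plain CPM the core summed to a mean of 1736 and the cap to 1773 with total T cells, over 15 and 17 subunits. The median over the measured core subunits was 43.3 CPM per kb of exon with total T cells and 27 CPM per kb without T cells. Over the cap it was 34.2 CPM per kb with total T cells and 22.8 CPM per kb without T cells. Of the catalytic subunits, Psmb6 was highest on this scale, with 66.7 CPM per kb with total T cells and 50.9 without, ahead of Psmb5 (44.6 and 30.4) and Psmb7 (37.2 and 27). That order depends on the exon lengths used, 899 bases for Psmb5, 1872 for Psmb6 and 3421 for Psmb7. Without that division, Psmb5, Psmb6 and Psmb7 had means of 40.1, 125 and 127 CPM with total T cells. Psmb4, a structural subunit of the beta ring, was at 142 CPM per kb with total T cells and 85.4 without. It rose by 0.73 on the log2 scale, with q = 0.000412.

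The constitutive catalytic subunits rose less than the inducible forms that replace them. Psmb8, Psmb9 and Psmb10 were higher with total T cells than without by 1.34, 1.12 and 1.24 on the log2 scale, against 0.58, 0.39 and 0.46 for Psmb5, Psmb6 and Psmb7. The activator subunits Psme1 and Psme2 were higher by 0.91 and 1.58. Psme2 differed between the sets: with total T cells it had 262 to 569 CPM in set A, and 79.4 and 108 in set B. Without T cells Psme2 had 98.7 to 151 CPM in set A, and 49.4 and 67.4 in set B. The ratio of each inducible to its constitutive form was taken per library from CPM per kb, and 16 such comparisons were tested by exact two-sided permutation with Benjamini-Hochberg adjustment.

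The log2 ratio of Psmb8 to Psmb5 averaged 1.79 ± 0.18 with total T cells (SD, n = 5) and 1.03 ± 0.25 without (SD, n = 6). The groups did not overlap, with a lowest value of 1.48 and a highest of 1.32, and the difference was 0.75 (adjusted p = 0.0081, exact). Within the sets the ratio was 1.85 with total T cells and 1.00 without in set A, and 1.69 and 1.10 in set B. For Psmb9 to Psmb6 the difference was 0.69 (adjusted p = 0.0081, exact) and for Psmb10 to Psmb7 0.68 (adjusted p = 0.0148, exact). For the activators, Psme1 to Psme3, it was 0.49 (adjusted p = 0.026, exact). That last ratio averaged 2.23 with total T cells and 1.57 without in set A, but 1.78 and 1.52 in set B, where the libraries overlapped.

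With IL6Ra/IL21R ko T cells the ratios were below those with total T cells by −0.55, −0.73, −0.69 and −0.77 for the 4 pairs in the same order, with adjusted p of 0.0135, 0.0081, 0.0081 and 0.0081 by exact permutation. The permutation did not take the library sets into account, and the pairs were chosen with earlier results known. No IL6Ra/IL21R ko library is in set A, which holds 3 of the 5 with total T cells. Within set B the Psmb8 to Psmb5 ratio was 1.33 ± 0.22 with IL6Ra/IL21R ko and 1.69 ± 0.30 with total T cells. In the same order, Psmb9 to Psmb6 was there at −0.62 ± 0.19 and −0.12 ± 0.31. Psmb10 to Psmb7 was at 1.76 ± 0.21 and 2.29 ± 0.15, and Psme1 to Psme3 at 1.32 ± 0.17 and 1.78 ± 0.37. Against no T cells, only Psme1 to Psme3 passed (−0.27, adjusted p = 0.0363, exact), and the other 3 pairs lay between −0.04 and 0.20. With IL22 ko T cells no pair passed against total T cells, with differences from −0.38 to −0.19 and adjusted p from 0.167 to 0.47 by exact permutation over 56 splits. The set C groups were not tested, and the Psmb8 to Psmb5 ratio there was 1.15 ± 0.06 with Tbet ko, 0.64 ± 0.28 with IFNg ko and 1.48 ± 0.12 with IL17AF ko T cells (n = 2 each).

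**Figure D5:**
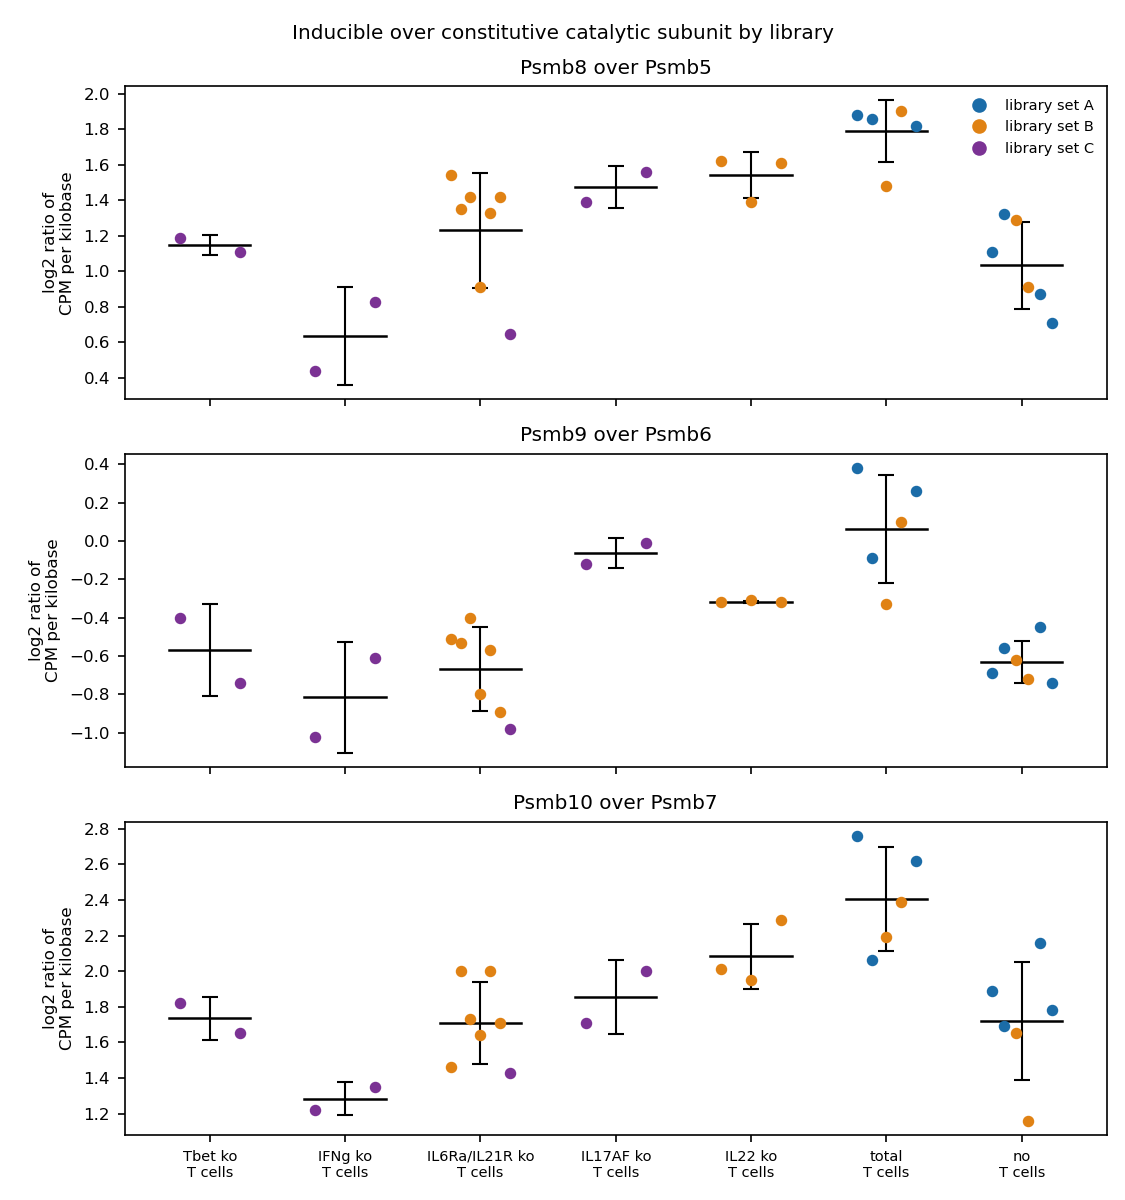
Log2 ratio of CPM per kb of each inducible to its constitutive form, in each library by group, for Psmb8 to Psmb5, Psmb9 to Psmb6 and Psmb10 to Psmb7, with group means and SDs and library sets in colour. Total T cells average 1.79 and no T cells 1.03 for the first pair, without overlap.

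Of 25 further genes that assemble, regulate or feed the proteasome, 24 were in the table, and with total T cells 6 were higher and 2 lower than without, where 1454 and 1215 of all 12661 genes were. Higher were the cap subunit Sem1 (0.57), the core assembly factor Pomp (0.67), the proteasome adaptor Ecpas (0.31), the ubiquitin-activating enzyme Uba1 (0.38), the segregase cofactor Ufd1 (0.48) and the stress-response factor Nfe2l2 (0.73). Zfand5, a proteasome-binding zinc finger protein, was among the lower (−0.52). Nfe2l1, the factor that raises proteasome genes when the proteasome is inhibited, was at −0.28 and missed the threshold (q = 0.0512). With IL6Ra/IL21R ko against total T cells 7 were lower and 4 higher, where 1877 and 1689 of all genes were. Of the partners, Pomp (−0.60), Sem1 (−0.46), Nfe2l2 (−0.95), Uba1 (−0.33), Ubb (−0.62), Adrm1 (−1.48) and Vcp (−1.12) were lower, and Nfe2l1 (0.29), Rad23b (0.33), Akirin2 (0.41) and Zfand5 (0.65) higher. Adrm1 had 27.8 to 38.6 CPM in the set A libraries without T cells and 8.44 and 11.9 in those of set B. In set B, Adrm1 was at 11.3 and 11.5 CPM with total T cells and 9.45 to 18.3 with IL6Ra/IL21R ko T cells. Vcp was there at 54.3 and 61.1 against 49.1 to 62.1, and Ubb at 201 and 223 against 201 to 245. With the set as a term, 2 partners were lower and 2 higher, where 982 and 827 of all genes were.

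In the other groups the monocyte-derived markers summed to 413 to 450 CPM with Tbet ko, 347 with IFNg ko, 524 to 571 with IL17AF ko and 958 to 1520 with IL22 ko T cells. Of 5 dendritic cell markers 3 were higher with total T cells than without, with sums of 52.1 to 105 CPM with total T cells and 13.9 to 35.6 CPM without. Of 5 neutrophil markers 1 was higher, with sums of 17.4 to 223 CPM with total T cells and 0 to 821 without. Fibroblast sums in the IL6Ra/IL21R ko group ran from 338 to 3350 CPM, and all 5 fibroblast markers were higher there than with total T cells. The part of these cells in the proteasome results was not tested.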

How the data were processed

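Per the labels' protocols, blood was flushed by perfusion, the dura was digested, macrophages were sorted, and NEBNext Ultra II libraries from an unstranded kit were read as 75-base single ends. Not given in the sources used here are the sort's markers, the annotation release and how reads with several matches were counted. The submitters' processing notes name the GRCm38 genome, featureCounts, STAR 2.4.0j and DESeq2 1.20.0. The authors deposited one table of whole-number gene counts. It is named as normalized, yet column totals differ and no whole number between 1 and 20 is missing from any of its 27 columns, so the values were used as raw counts. Columns show group and sex but not the titles' replicate numbers, hence the names F1 and M1. The 52 pairs of libraries of a group differed by more than sampling noise (chi-square per degree of freedom 8.97 to 138), so each library counted once.

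From these counts, genes whose normalized count averaged at least 10 were kept, and group and sex were fitted in edgeR 4.0.16 (TMM scaling, R 4.3.3, limma 3.58.1) over the 27 libraries. A gene was called at a Benjamini-Hochberg adjusted p (q) under 0.05 over all genes tested. The planned limma test on log2 values was for a normalized table and was not used. CPM use the TMM-scaled total, scores the pseudocount 1, and pair ratios exact permutation tests. Alternatives were DESeq2 1.42.0, other scaling and filters, no sex term, females alone, the groups alone, the library set as a term, single sets and each library left out. The script was checked on simulated counts. Gene coordinates are GRCm38 and promoters RefSeq GRCm38.p6.

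The members and lists were chosen with earlier results of these data known. Full values are given for the 3 catalytic subunits, the member of each role with the lowest p over the 7 groups, members called against the sign of their role's median, and members called in both directions against no T cells. Inducible forms and called partners are given too, but 1 partner gene is not reported here.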

Additional observations from a re-analysis of the deposited data

Results flagged for a closer look

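In groups of 4 to 10 libraries, the highest or lowest library stood apart from the others by Dixon's criterion in 10 of 45 groups of values examined. Chance would pick about 1 in 20 such groups. No cause was tested.

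Of these, 4 were the lowest value in IL6Ra/IL21R ko M4, the 1 library of its group in set C. Its 20S score was 5.37 where the next was 5.79, and its 20S minus 19S difference was −0.86 where the others reached from −0.56 to −0.47. Psmb6 there was at 72.8 CPM where the next was 94.1, and Psmd8 at 99.2 CPM where the next was 109.

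In the group without T cells, F2 had the highest 20S score, 6.09 where the next was 5.82. Psmc3 was highest in F3, at 164 CPM where the next was 135. F4 was highest for Psmd4, at 114 CPM where the next was 87.4, and for Psma1, at 113 CPM where the next was 101. Psme2b was lowest in F1, at 2.12 CPM where the next was 3.48. With total T cells, Psme2b was highest in F1, at 13.3 CPM where the next was 6.43. Psme2b has few counts and is near-identical in sequence to Psme2.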

How the results depend on the processing

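No paired analysis was possible because the columns carry none of the replicate numbers of the sample titles. Under alternatives other than leaving out a library, 206 values of named genes kept their direction and side of the threshold, 41 no longer passed, 4 newly passed, and Psmb7 in total T cells against no T cells turned to −0.14 within set B. Of the counts and score differences, 100 stayed close, 30 moved, and 1 turned. With the set as a term the members called were 12 for any difference, 0 for Tbet ko, IFNg ko and IL17AF ko against total T cells, 0 for Tbet ko and IFNg ko against no T cells, and 4 for IL6Ra/IL21R ko against total T cells. Within set B they were 0 for total T cells against no T cells and 0 for IL6Ra/IL21R ko against total T cells. With the groups fitted alone they were 15 for total T cells against no T cells. Against total T cells they were then 9 for Tbet ko, 13 for IFNg ko (14.7% of all genes in either direction) and 6 for IL17AF ko (9.28%). Against no T cells they were 2 for Tbet ko and 4 for IFNg ko (8.19%). In females alone they were 9 for total T cells against no T cells and 7 for IL6Ra/IL21R ko against total T cells, and for Tbet ko against no T cells 1, which was higher and not lower. DESeq2 and the fit with no filter beyond 1 count each gave 3 for Tbet ko, 1 for IL17AF ko and 1 for IL6Ra/IL21R ko against no T cells, and 2 for IL22 ko against total T cells. For IL17AF ko against no T cells, these fits called 9.26% and 5.52% of all genes, in that order. Tbet ko against no T cells had 2 without the sex term and 2 with scaling factors that left out ribosomal protein genes. The 20S minus 19S gap to total T cells was −0.07 for IL6Ra/IL21R ko and 0.01 for IL22 ko within set B, and −0.10 for IL6Ra/IL21R ko without members that have a copy. With each library left out in turn, the counts ran from 12 to 26 for total T cells against no T cells. Against total T cells they ran from 7 to 31 for Tbet ko, 18 to 35 for IFNg ko, 14 to 25 for IL6Ra/IL21R ko, 10 to 32 for IL17AF ko and 0 to 2 for IL22 ko. Against no T cells they ran from 0 to 3 for Tbet ko, 0 to 11 for IFNg ko, 0 to 1 for IL6Ra/IL21R ko, 0 to 1 for IL17AF ko and 0 to 0 for IL22 ko, and over all groups from 22 to 34. The share of all genes called also changed between these fits. Where that share is not given, a count alone does not tell a change of the members from a change of all genes. The causes were not tested. The fits without set C, those without Psma8 or members with a copy, and the test of set by group were chosen after seeing the data. Set C alone was not run, since no comparison has 2 libraries of both groups in it. With 2 libraries in 3 of the groups, small differences in them cannot be seen.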
